A study of Mus musculus with 8 samples.

Results

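The 10 genes described here encode cytokines of the IL-17 and IL-20 families, the IL-23 subunit p19 and 2 receptor chains of these families. They are Il17a, Il17f, Il17c, Il22, Il23a, Il19, Il20, Il24, Il17ra and Il22ra1, chosen by name, and all 10 were found among the 21885 named genes of the table. RNA had been sequenced from 8 libraries of mouse skin, 4 treated with MC903 plus phytic acid and 4 treated with MC903 alone, which the submitters titled control. MC903 (calcipotriol) is an analogue of vitamin D used to inflame mouse skin as a model of atopic dermatitis, and phytic acid (inositol hexaphosphate) is how seeds store phosphate. All 8 libraries therefore carry MC903 and none is of untreated skin. The sources used here do not give strain, sex, age, body site or duration, nor whether the libraries come from separate mice. The p-values thus measure the spread between these libraries, which may be technical. The title of the series concerns the skin barrier in models of atopic dermatitis, and its design compares these 2 groups.

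In skin, IL-23 (the p19 subunit paired with p40) sustains lymphocytes that release IL-17A, IL-17F and IL-22. IL-17A and IL-17F act through a complex of IL-17RA and IL-17RC, whereas IL-17C, made by epithelial cells, acts through IL-17RA with IL-17RE. IL-19, IL-20, IL-24 and IL-22 signal to keratinocytes through STAT3. IL-20RA with IL-20RB binds IL-19, IL-20 and IL-24, IL-22RA1 with IL-20RB binds IL-20 and IL-24, and IL-22RA1 with IL-10RB binds IL-22. These signals are known to slow keratinocyte differentiation and to induce antimicrobial proteins and thickening of the epidermis.

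Values are FPKM (fragments scaled by gene length and by the library's total), and the read numbers behind them were recovered from FPKM and exon length. Library totals were 38310034 to 42997271 reads with MC903 plus phytic acid and 31676934 to 37639476 with MC903, so each phytic acid library was the deeper. Only 4 of the 10 genes (Il19, Il24, Il17ra and Il22ra1) entered the test over all genes, by having 4 or more libraries with an FPKM no lower than 1. Il17a, Il17f, Il17c, Il22, Il23a and Il20 did not, and for these each library's value and an exact permutation test are given. In the test (limma on log2(FPKM + 1), Benjamini-Hochberg adjusted p under 0.05) 25.8% of 12165 genes were called, 14.2% as higher and 11.6% as lower with phytic acid. Of these 4 members, Il22ra1 was called higher and Il24 lower. Epidermal genes marked the tissue as labelled: the summed FPKM of 12 keratinocyte genes was 7785 to 9119 with phytic acid and 9329 to 12657 with MC903. Of the 12, 3 rose (Krt10, Krt15 and Dsg1a) and 1 fell (Krt14), with a median log2 difference of -0.13. Krt14, of basal cells, averaged 1357 ± 254 FPKM with phytic acid and 5275 ± 1619 with MC903 (SD, n = 4 each), a gap larger than that of the sums.

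**Figure D1:**
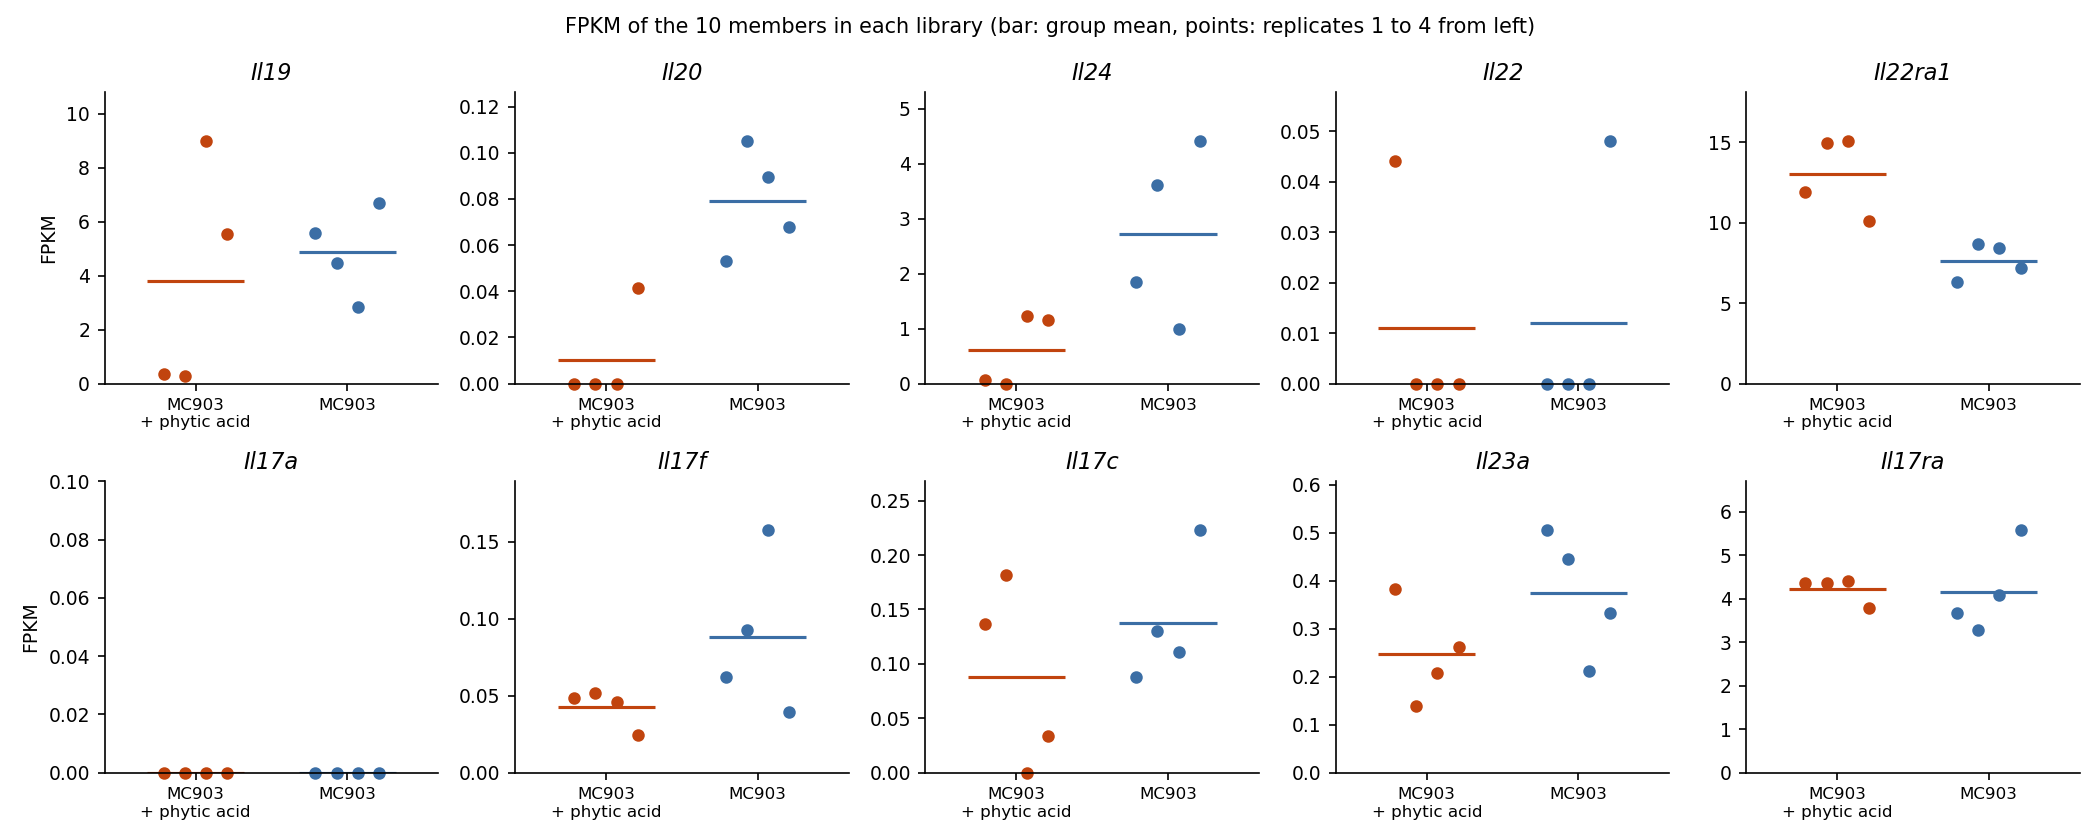
FPKM (y axis, linear, scaled per gene) of each of the 10 genes in 4 libraries of MC903 plus phytic acid (left, orange) and 4 of MC903 (right, blue), with the group mean as a bar. Il22ra1 is higher in each phytic acid library, Il20 is lower in each, Il19 and Il24 are spread widely among the phytic acid libraries, and Il17a is at 0 throughout. For Il20, phytic acid replicate 4 and MC903 replicate 1 hold 2 reads each and differ only in depth.

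Of the cytokines of the IL-20 family, Il19 and Il24 were the most abundant, and with phytic acid both were uneven between libraries. Il24, Il20 and Il19 lie next to each other on the minus strand of chromosome 1. In the GRCm38 annotation (the assembly named mm10 by the submitters' processing notes) Il24 spans 130882074 to 130887454, Il20 130906985 to 130911451 and Il19 130932656 to 130940115. All 3 are protein-coding, and no exon of another annotated gene overlaps theirs.

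Il24, a cytokine of keratinocytes and immune cells, stood at 0.0709, 0, 1.23 and 1.15 FPKM in replicates 1 to 4 of MC903 plus phytic acid, from 4, 0, 73 and 65 reads. In MC903 replicates 1 to 4 the values were 1.85, 3.60, 0.997 and 4.42 FPKM, from 81, 160, 52 and 229 reads. Phytic acid replicates 1 and 2 had next to none, while replicates 3 and 4 lay just above the lowest MC903 library, so the groups overlapped. In bulk skin, fewer cells of a type and less RNA per cell cannot be told apart. The log2 fold change was -1.20 ± 0.37 (SE, 95% interval -2.03 to -0.37), with an adjusted p of 0.0403 by limma, and an exact two-sided permutation test gave p = 0.0857. The call was lost when MC903 replicate 1 (adjusted p = 0.0650), replicate 2 (0.105) or replicate 4 (0.104) was left out, and without phytic acid replicate 1 (0.101) or replicate 2 (0.104). It was also lost in 5 other alternatives, and the size rested on the pseudocount: -2.58 with a pseudocount of 0.1 and -3.64 by voom on recovered reads. Among the 16 alternatives its adjusted p ranged from 0.0113 to 0.105.

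Il19, which shares the receptor of IL-20 and IL-24, was at 0.363, 0.273, 9.01 and 5.55 FPKM in phytic acid replicates 1 to 4. In MC903 replicates 1 to 4 it was at 5.58, 4.45, 2.82 and 6.70 FPKM. The lowest pair of libraries and the highest library were all of the phytic acid group, with 17, 12 and 445 reads. Its log2 fold change of -0.80 ± 0.64 (SE, 95% interval -2.23 to 0.62) was not called, with an adjusted p of 0.386 by limma. Left out singly, phytic acid replicate 3 gave -1.34 (adjusted p = 0.103), replicate 1 gave -0.38 and replicate 2 gave -0.35.

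Il20, known from keratinocytes of psoriatic plaques in humans, had 0, 0, 0 and 2 reads with phytic acid and 2, 4, 4 and 3 reads with MC903. The FPKM were 0, 0, 0 and 0.0414 with phytic acid, against 0.0532, 0.105, 0.0896 and 0.0676 with MC903. The groups did not overlap in FPKM, which also held for 13.0% of tested genes in this direction, Il20 not being among those tested. Phytic acid replicate 4 and MC903 replicate 1 each had 2 reads. Their FPKM differ only through library totals of 40781490 and 31676934 reads, so the lack of overlap, and the permutation p that follows, rest on depth there. The exact permutation test on log2(FPKM + 1) gave p = 0.0286, the smallest that 4 against 4 can give. With any 1 library left out the exact permutation p was 0.0571, again the smallest possible. Over the groups, 2 reads stood against 13, a ratio of rates of 0.131 with an exact 95% interval of 0.0144 to 0.579 that covers counting error only. In the fit over all genes without a filter on low values, where 8.99% of genes were called higher and 7.49% lower, Il20 was lower with an adjusted p of 0.0244 by limma. With so few reads, a count of 0 in a library allows up to 3 reads, or 0.0588 to 0.0660 FPKM in the 3 phytic acid libraries that had none.

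Il22, the lymphocyte cytokine that acts on epithelium, was at the limit of detection. It lies on the plus strand of chromosome 10, from 118204942 to 118210047. It had 2, 0, 0 and 0 reads with phytic acid and 0, 0, 0 and 2 reads with MC903, and no fold is given. The mouse genome holds a close copy, Iltifb, and the sources used here do not say how shared reads were counted.

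The sequence before the start of Il19 and Il20 is shown because these neighbours are read from the same strand but differed in level. Il22ra1 is shown because it was the called receptor chain. Each line holds 250 bases before the start and 50 after it on the gene's own strand, from RefSeq (GRCm38.p6), chr1:130940066-130940365, chr1:130911247-130911546 and chr4:135727909-135728208 in that order.
Il19: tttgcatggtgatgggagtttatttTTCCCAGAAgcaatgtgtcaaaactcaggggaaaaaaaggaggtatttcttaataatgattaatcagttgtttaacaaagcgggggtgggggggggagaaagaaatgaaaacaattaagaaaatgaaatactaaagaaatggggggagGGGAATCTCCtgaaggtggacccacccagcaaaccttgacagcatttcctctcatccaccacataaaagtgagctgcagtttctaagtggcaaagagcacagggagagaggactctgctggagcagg
Il20: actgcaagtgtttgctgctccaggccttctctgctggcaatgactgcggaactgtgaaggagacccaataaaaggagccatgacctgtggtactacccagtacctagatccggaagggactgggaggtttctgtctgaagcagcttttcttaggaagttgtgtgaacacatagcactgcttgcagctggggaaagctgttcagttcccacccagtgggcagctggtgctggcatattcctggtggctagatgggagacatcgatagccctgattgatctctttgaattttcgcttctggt
Il22ra1: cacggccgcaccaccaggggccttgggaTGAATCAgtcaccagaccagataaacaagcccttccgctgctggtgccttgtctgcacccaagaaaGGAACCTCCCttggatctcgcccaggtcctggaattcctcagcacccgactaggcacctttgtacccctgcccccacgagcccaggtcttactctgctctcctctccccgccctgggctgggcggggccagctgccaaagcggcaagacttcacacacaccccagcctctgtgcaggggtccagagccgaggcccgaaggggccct
Capitals mark matches to any of 4 motifs: AP-1 (TGANTCA), the NF-kB consensus, and STAT (TTCNNNGAA), each on both strands, and the TATA box (TATAAA, gene strand). No matches overlapped. The NF-kB consensus was chosen after a narrower form of it, found in 1.63% of windows, had given 0 matches in these genes. Il19 held a STAT match, which 8.3% of 32851 such windows hold, and a match to the NF-kB consensus (8.46% of windows). Il20 held no match. Its RefSeq start lies inside the span annotated above, which ends at 130911451, so part of the 250 bases is within the annotated gene. The RefSeq start of Il19 is the annotated end of its span, so these windows are not placed alike. Il22ra1 held an AP-1 match, found in 7.81% of windows, and also an NF-kB match. RefSeq windows were at hand for 7 of the 10 genes. Il17a, Il17f, Il17c and Il22 each held a TATA match (8.32% of windows), and Il17a also an AP-1 match. The TATA matches were not placed alike, beginning at -31 (Il17a), -29 (Il17f), -248 (Il17c) and -170 (Il22) from the start. All matches named here are of letters only.

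Il22ra1, the chain through which keratinocytes sense IL-22 and also IL-20 and IL-24, was higher in each phytic acid library. It stood at 11.9, 14.9, 15.1 and 10.1 FPKM in phytic acid replicates 1 to 4 and at 6.30, 8.65, 8.44 and 7.15 FPKM in MC903 replicates 1 to 4. These rest on 1060 to 1667 reads per phytic acid library and 513 to 816 per MC903 library. The groups did not overlap, as for 14.3% of tested genes in this direction. The mean was 13.0 ± 2.43 FPKM with phytic acid and 7.64 ± 1.11 with MC903 (SD, n = 4 each). The log2 fold change was 0.69 ± 0.15 (SE, 95% interval 0.36 to 1.02), with an adjusted p of 0.00895 by limma. It was called in each of 16 alternatives, with adjusted p between 0.00665 and 0.0302. Il22ra1 lies on the plus strand of chromosome 4, from 135728172 to 135752140, and is protein-coding.

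The partner chains of Il22ra1 were higher too, in a list of 16 other receptor chains. Of the 13 tested, 7 rose and 1 fell, against 14.2% and 11.6% of all tested genes, and their median log2 fold change was 0.36, beside 0.05 for all genes. With 1 library left out, 5 to 7 rose. Il20rb, the chain shared by both IL-20 receptor complexes, was the most abundant of these partners. It stood at 50.8, 54.7, 45.8 and 41.7 FPKM with phytic acid and at 11.3, 15.3, 23.0 and 10.8 FPKM with MC903. The lowest phytic acid library thus lay well above the highest MC903 library, and the log2 fold change was 1.67 ± 0.21 (SE), with an adjusted p of 0.000926 by limma.

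Il22ra2 encodes a soluble decoy that binds IL-22 and keeps it from its receptor. It was at 10.9, 25.6, 45.4 and 20.6 FPKM with phytic acid and at 1.79, 4.47, 5.36 and 0.974 FPKM with MC903, with no overlap. Its log2 fold change of 2.67 ± 0.46 (SE) was the largest of the 13 chains, with an adjusted p of 0.00349 by limma. Il20rb and Il22ra2 were called in each of the 16 alternatives, and neither overlapped between groups, as for 14.3% of tested genes in this direction.

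Il20ra and Il10rb, picked after their values were seen because they complete these receptors, were also called. Il20ra averaged 14.1 ± 1.15 FPKM with phytic acid and 8.61 ± 2.84 with MC903 (SD, n = 4 each), a log2 fold change of 0.70 ± 0.20 (SE) and an adjusted p of 0.0325 by limma. That call was lost when MC903 replicate 1 was left out (adjusted p = 0.0589), and likewise phytic acid replicate 1 (0.0593), 2 (0.0703), 3 (0.0701) or 4 (0.0585). It was also lost with no filter on low values (0.0617) and under median-of-ratios scaling (0.0606). Il10rb averaged 6.31 ± 0.574 FPKM with phytic acid and 4.68 ± 0.410 with MC903 (SD, n = 4 each). Its log2 fold change of 0.36 ± 0.10 (SE, adjusted p of 0.0239 by limma) lost the call when replicate 2 of MC903 (0.0637), or replicate 1 (0.0561) or 4 (0.0666) of phytic acid, was left out. The values of both genes did not overlap between the groups, as for 14.3% of tested genes in this direction.

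**Figure D2:**
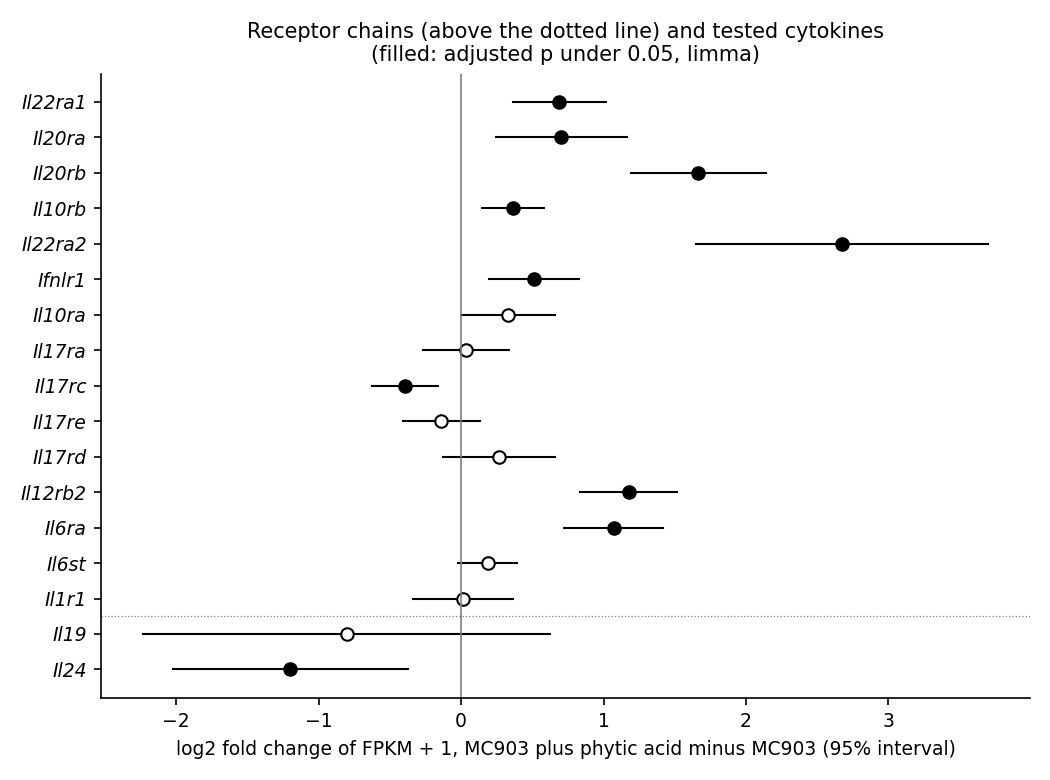
Log2 fold change of FPKM + 1 (x axis, MC903 plus phytic acid minus MC903, limma estimate with its 95% interval) for 15 tested receptor chains and, under the dotted line, Il19 and Il24. Filled points passed an adjusted p of 0.05. The 5 chains of the IL-20 and IL-22 receptors at the top lie right of 0, Il17rc and Il24 left of it.

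Receptor chains of other cytokines in the list moved as well. Il12rb2, a chain of the IL-12 receptor, averaged 2.03 ± 0.313 FPKM with phytic acid and 0.356 ± 0.261 with MC903 (SD, n = 4 each; log2 fold change 1.18, adjusted p of 0.00102 by limma). It reached an FPKM of 1 only in phytic acid libraries, so it passed the filter only through the group where it was high. It is nonetheless among the 7 chains counted above as risen. Il6ra averaged 18.8 ± 3.33 FPKM with phytic acid and 8.43 ± 1.72 with MC903 (log2 fold change 1.07, adjusted p of 0.00167 by limma). Its partner Il6st was not called (log2 fold change 0.19, 95% interval -0.02 to 0.40).

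Other tissue markers differed between the same libraries. The summed FPKM of 10 skeletal muscle markers was 6401 to 7832 with phytic acid and 2889 to 3535 with MC903. For 8 adipocyte markers it was 569 to 1004 with phytic acid and 215 to 524 with MC903. For 13 dendritic, Langerhans and macrophage markers it was 1336 to 2229 with phytic acid and 740.1 to 907 with MC903. Of the tested markers 6 of 9 rose for muscle, 2 of 7 for adipocytes and 9 of 11 for the last list, against 14.2% of all tested genes, a share that 2 of 7 exceeds by about 1 marker. Without MC903 replicate 4, 3 muscle markers rose, and 4 did without replicate 1 of MC903 or replicate 1 or 2 of phytic acid. Adipocyte markers that rose numbered 5 without MC903 replicate 3 and 3 without MC903 replicate 2. Of these markers none was at 0 in all libraries, and the part of tissue makeup in the rise of the receptor chains was not tested.

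The cytokines of the IL-17 branch were scarcely detected in either group. All are protein-coding: Il17f spans 20777146 to 20790617 (chromosome 1, minus strand), Il17c 122422020 to 122423639 (chromosome 8, plus strand) and Il23a 128296139 to 128298752 (chromosome 10, minus strand). Il17a, the namesake of type 17 immunity (chromosome 1, 20730905 to 20734496, plus strand), had 0 reads in all 8 libraries. A count of 0 allows up to 3 reads per library, or 0.0596 to 0.0669 FPKM with phytic acid and 0.0681 to 0.0809 FPKM with MC903. Il17f, its neighbour and partner in the IL-17A/F dimer, had 4, 4, 4 and 2 reads with phytic acid and 4, 6, 12 and 3 reads with MC903. The ratio of read rates was 0.477 (exact 95% interval 0.229 to 0.954, counting error only), and over libraries the exact permutation test gave p = 0.114. The groups overlapped, and the highest value was in MC903 replicate 3.

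Il17c, the epithelial member, had 4, 5, 0 and 1 reads with phytic acid and 2, 3, 3 and 6 reads with MC903. Its rate ratio was 0.609 (exact 95% interval 0.242 to 1.47, counting error only), with an exact permutation p of 0.371 over libraries. No difference in Il17c was detected.

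Il23a was the most abundant of the low cytokines, at 0.382, 0.139, 0.207 and 0.262 FPKM with phytic acid and 0.506, 0.444, 0.213 and 0.333 FPKM with MC903. In reads these were 35, 12, 20 and 24 with phytic acid and 36, 32, 18 and 28 with MC903. The groups overlapped, and the exact permutation test gave p = 0.171. Il12b, the p40 subunit that IL-23 and IL-12 share, is named after its values were seen. It was at 0.724, 0.372, 0.213 and 0.922 FPKM with phytic acid and 0.0160, 0.127, 0.311 and 0 FPKM with MC903, overlapping and below the filter. Il23r, a chain of the IL-23 receptor, likewise named after its values were seen, was at 0.523, 0.567, 0.393 and 0.434 FPKM with phytic acid. With MC903 it was at 0.140, 0.376, 0.310 and 0.0967 FPKM, each below each phytic acid library, and it too was below the filter and not tested. Of tested genes, 14.3% did not overlap in this direction.

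Il17ra, the chain common to IL-17 receptors (chromosome 6, 120463247 to 120487559, plus strand), was not called. It stood at 4.36, 4.36, 4.40 and 3.78 FPKM with phytic acid and at 3.67, 3.29, 4.09 and 5.58 FPKM with MC903. The MC903 libraries held both the lowest and the highest value, and the mean was 4.22 ± 0.299 with phytic acid and 4.16 ± 1.002 with MC903 (SD, n = 4 each). The log2 fold change was 0.04 ± 0.14 (SE, adjusted p of 0.870 by limma), and its 95% interval of -0.27 to 0.34 leaves room for either direction. The sign turned under median-of-ratios (-0.0079) and quantile scaling (-0.0401), and when MC903 replicate 1 (-0.0050) or 2 (-0.0463) was left out.

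Il17rc, which completes the IL-17A and IL-17F receptor, was lower with phytic acid, at 17.6 ± 2.19 FPKM against 23.3 ± 1.21 with MC903 (SD, n = 4 each). Its log2 fold change of -0.39 ± 0.10 (SE) had an adjusted p of 0.0211 by limma, lost when replicate 2 (0.0521) or 4 (0.0541) of MC903, or replicate 4 of phytic acid (0.0511), was left out, and under TPM scaling (0.0643). Il17re, which completes the IL-17C receptor, was not called, at 2.12 ± 0.374 FPKM with phytic acid and 2.42 ± 0.316 with MC903.

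By mean FPKM, a level per length, the order with phytic acid was Il22ra1, Il17ra, Il19, Il24, Il23a, Il17c, Il17f, Il22, Il20 and Il17a. The range of Il22ra1 lay clear above all others there, while each neighbouring pair from Il17ra down to Il20 overlapped. With MC903 the order was Il22ra1, Il19, Il17ra, Il24, Il23a, Il17c, Il17f, Il20, Il22 and Il17a. There Il22ra1 overlapped Il19, and Il24 stood clear above Il23a. Il20 lay above Il22 in FPKM, but on 2 to 4 reads per library. A count of 0 for Il22 allows 0.0718 to 0.0853 FPKM, so the order of Il20 and Il22 is not resolved. The other neighbouring pairs down to Il22 overlapped.

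Of 14 other cytokines of these families and of type 17 induction, 5 were tested, 1 fell and 0 rose. With 11.6% of all tested genes lower, 1 of 5 is no result about this list. The one called was Il1a, an alarm cytokine of keratinocytes, at 14.3 to 16.5 FPKM with phytic acid and 17.1 to 31.7 FPKM with MC903. Its log2 fold change was -0.63 ± 0.17 (SE, adjusted p of 0.0218 by limma). The call was lost when MC903 replicate 1 (0.0529), 2 (0.0546) or 4 (0.0615), or phytic acid replicate 1 (0.0530) or 2 (0.0569), was left out.

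Several genes of acute inflammation, named after their values were seen, were uneven among the phytic acid libraries in the way of Il19 and Il24. Il6 was at 0.243, 0.366, 1.89 and 1.92 FPKM in phytic acid replicates 1 to 4 and at 0.871, 1.40, 0.525 and 2.61 in MC903 replicates 1 to 4. Il1b was at 2.43, 0.876, 9.45 and 5.91 FPKM with phytic acid and 2.65, 3.67, 1.81 and 22.1 with MC903. Il10, which neighbours the IL-20 cytokines on chromosome 1 in the mouse, was at 0.674, 0.379, 1.81 and 1.39 FPKM with phytic acid and 1.83, 0.881, 0.487 and 1.51 with MC903.

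Socs3, the feedback inhibitor that STAT3 induces, was at 7.31, 7.88, 20.4 and 20.6 FPKM with phytic acid and 11.2, 11.0, 10.4 and 18.8 with MC903. In each of these genes, phytic acid replicates 3 and 4 were above replicates 1 and 2, and none of these 4 genes was called. As they were named after their values were seen, this split is no result about inflammation genes. Il23a and Tnfaip3 did not share it, and the share of all genes with it was not counted. The summed FPKM of 12 neutrophil markers was 15.0 to 162 with phytic acid and 123 to 749.6 with MC903. Of the 6 tested, 3 fell (Cxcr2, Mmp8 and S100a8) and 0 rose, against 11.6% and 14.2% of all tested genes. With 1 library left out, 0 to 4 fell. Mmp8 reached an FPKM of 1 only in MC903 libraries, so it passed the filter only through the group where it was high. Its call was lost with no filter on low values (adjusted p = 0.0559 by limma). Of the 12, 3 (S100a8, S100a9 and Camp) are also among the keratinocyte targets, and the other 9 summed to 5.18 to 24.0 with phytic acid and 12.2 to 41.4 with MC903. The part of neutrophils in these values was not tested. Within that list Ly6g was at 0 in 3 phytic acid and 3 MC903 libraries.

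**Figure D3:**
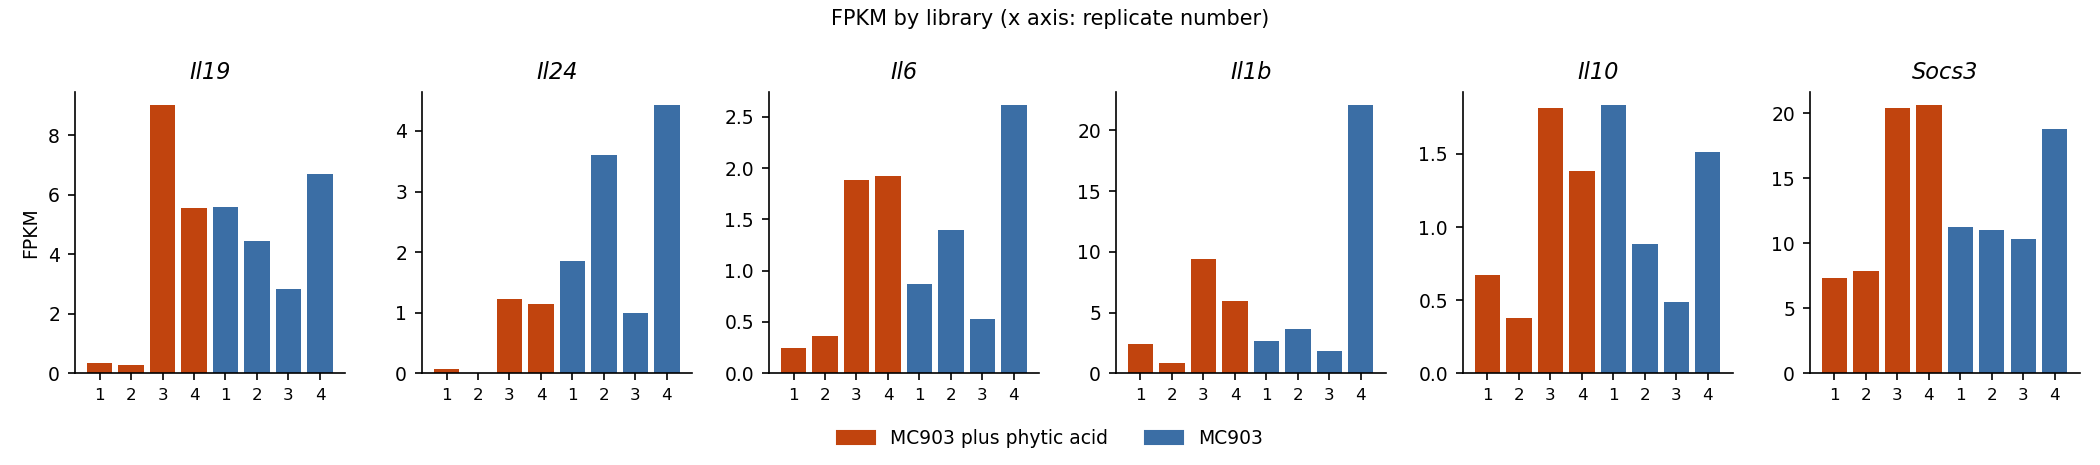
FPKM (y axis, linear from 0, scaled per gene) of Il19, Il24 and 4 inflammation genes in each library, with the replicate number on the x axis, MC903 plus phytic acid in orange at left and MC903 in blue at right. In the phytic acid group replicates 3 and 4 stand above replicates 1 and 2 for each gene, for example 20.4 and 20.6 against 7.31 and 7.88 FPKM for Socs3. The 4 inflammation genes were named after their values were seen.

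Of 29 signal transducers and brakes of these receptors, 28 were tested, 3 rose (Traf5, Tnfaip3 and Tab2) and 1 fell (Tab3), a share no higher than the 14.2% and 11.6% of all tested genes. The median log2 fold change was 0.01. With MC903 replicate 2 or phytic acid replicate 1 left out, 0 rose. With replicate 1 or 4 of MC903, or replicate 4 of phytic acid, left out, 1 rose, and 2 rose with phytic acid replicate 2 left out. Without MC903 replicate 3, 2 fell, and without phytic acid replicate 2, 1 fell. With any of the other 6 left out, 0 fell. Traf3ip2, the adaptor of IL-17 receptors, was at 5.23 ± 0.720 FPKM with phytic acid and 5.32 ± 0.447 with MC903 (SD, n = 4 each). Stat3 was at 23.4 ± 2.11 FPKM with phytic acid and 27.9 ± 3.90 with MC903, and neither gene was called. Tnfaip3, the A20 brake on NF-kB, had a log2 fold change of 0.54 ± 0.14 (SE, adjusted p of 0.0228 by limma), a call lost when MC903 replicate 1 or 2, or phytic acid replicate 1 or 4, was left out (adjusted p of up to 0.0635).

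Genes that keratinocytes are known to induce under IL-17 or IL-22, many of which have other inducers as well, were mostly lower with phytic acid. Of 32 such genes 27 were tested, 16 fell and 0 rose, against 11.6% and 14.2% of all tested genes, and the median log2 fold change was -1.69. With 1 library left out 12 to 18 fell, and 1 rose without MC903 replicate 3. With no filter on low values 12 fell and 1 rose, and with a filter on mean FPKM of 0.1, 13 fell and 1 rose. Tnip3, named after its values were seen, was under the main filter and went the other way. It was at 0.447 to 1.06 FPKM with phytic acid and 0.0098 to 0.134 with MC903, and 14.3% of tested genes did not overlap in this direction. Sprr2d, a cornified envelope precursor, averaged 20.9 ± 11.4 FPKM with phytic acid and 334 ± 142 with MC903 (SD, n = 4 each), a log2 fold change of -3.96 ± 0.48 (SE, adjusted p of 0.00079 by limma). The others of smallest p were Krt6a (-4.02), Krt16 (-3.99), Slpi (-3.92) and Mmp13 (-4.99). Of the 12 keratinocyte markers given above 3 rose and 1, Krt14, fell, and the part of keratinocyte and neutrophil numbers in these changes was not tested.

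The beta-defensin gene Defb4, which IL-17 and IL-22 are known to induce, was at 0.973, 2.30, 4.51 and 2.81 FPKM with phytic acid and at 36.6, 45.7, 6.26 and 74.7 FPKM with MC903, and it too fell (log2 fold change -3.20 ± 0.63, SE). The groups did not overlap, as for 13.0% of tested genes in this direction, although MC903 replicate 3 lay near the phytic acid libraries. The chemokine genes of this list were not called: Cxcl1 (-0.66), Cxcl2 (-1.42), Cxcl3 (-0.82), Cxcl5 (-0.30) and Ccl20 (-0.16). Defb4 and the chemokines were named after their values were seen.

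**Figure D4:**
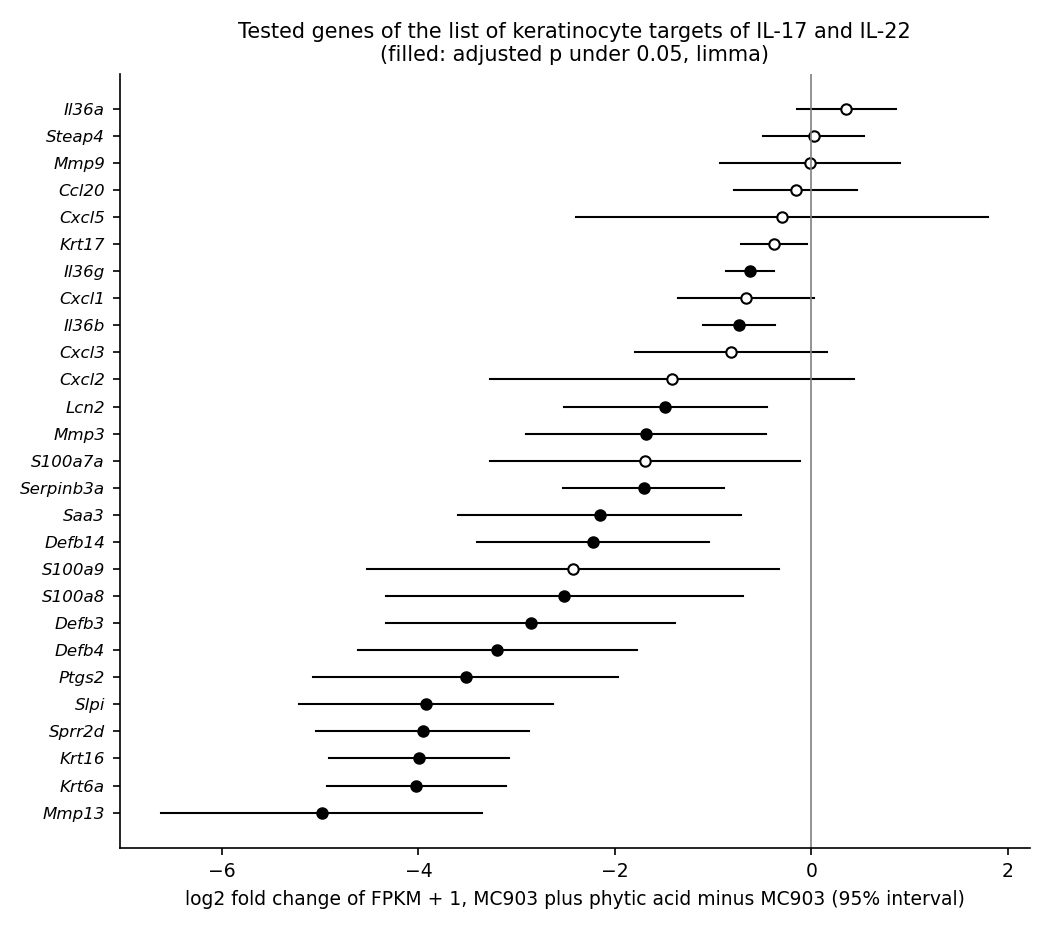
Log2 fold change of FPKM + 1 (x axis, MC903 plus phytic acid minus MC903, limma estimate with its 95% interval) of the 27 tested genes of the list of keratinocyte targets. The 16 filled points passed an adjusted p of 0.05 and all lie left of 0, from Il36g at -0.63 to Mmp13 at -4.99.

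Among genes of the lymphocytes that release these cytokines, several were higher with phytic acid. Of 21 type 17 lymphocyte genes 15 were measured under their names, 10 were tested, 5 rose and 0 fell, against 14.2% and 11.6% of all tested genes. The median log2 fold change was 0.39, beside 0.05 for all genes. The 5 were Ahr, Rora, Irf4, Batf and Ccr4, which many other cells of skin also express. Ahr, the aryl hydrocarbon receptor, averaged 27.1 ± 3.20 FPKM with phytic acid and 11.9 ± 2.35 with MC903 (SD, n = 4 each; log2 fold change 1.13, adjusted p of 0.000771 by limma). With replicate 2 of MC903, or replicate 1 or 2 of phytic acid, left out, 2 rose. Leaving out replicate 1 or 4 of MC903, or replicate 4 of phytic acid, gave 3. Of 6 tested T cell markers 4 rose (Cd3g, Cd2, Cd4 and Cd3d), against 14.2% of all tested genes, and 2 did when MC903 replicate 1 or 4, or phytic acid replicate 1, 2 or 4, was left out. Their summed FPKM with 3 more markers was 30.3 to 66.5 with phytic acid and 20.7 to 35.8 with MC903. Genes of the gamma delta T cell receptor were on the type 17 list but were not found under the names sought.

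The genes whose profiles over the 8 libraries were nearest to the called members are given by the root mean square difference of log2(FPKM + 1), each profile scaled to mean 0 and SD 1. For Il22ra1 they were Pcsk6 (0.151), a proprotein convertase, Ino80b (0.164), a chromatin remodelling subunit, and Ankrd35 (0.174). For Il24 they were Tpd52l2 (0.231), Akr1b8 (0.232), an aldo-keto reductase, and Nip7 (0.245). For Il19, added after its values were seen, they were Tnfrsf12a (0.257), the receptor of the cytokine TWEAK, Dph3 (0.270) and Ppig (0.277). Tnfrsf12a was at 8.85, 7.35, 19.7 and 15.04 FPKM with phytic acid and at 18.9, 17.9, 12.1 and 20.4 FPKM with MC903.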

How the data were processed

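The table that the authors deposited gives 1 FPKM value per gene and library for 8 libraries. Per the labels' protocols, TRIzol was used to extract RNA, and the library kit was SMARTER. Per the submitters' processing notes, the build was mm10 and the tools were DESeq, TopHat2, HISAT2 and cutadapt. Versions, annotation, strandedness and the tool behind the FPKM: not given in the sources used here. Unnamed rows (51, with 0.0160% to 0.0238% of a column) were left out, and of 21 repeated names the row of highest mean was kept.

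Reads were recovered as FPKM times exon length (GENCODE M21, GRCm38) over the value of 1 read. Of 17980 genes, 17509 (97.4%) gave whole numbers in every library (tolerance 0.05). Il24 needed a length of 1385 in place of 1386 bases. Replicates differed by 53.4 to 195 in chi-square per gene, far above counting noise. Counting intervals (exact, 95%) and the limit of 3 reads for a count of 0 cover counting error only.

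Values were fitted as log2(FPKM + 1) with limma 3.58.1 in R 4.3.3 (trend, group as the only factor), for genes at FPKM 1 or above in 4 or more libraries. The pseudocount understates changes of low genes. The fit was also run on simulated counts with the same spread for each gene and no uneven replicates. That run therefore does not cover replicates as uneven as these. Exact permutation tests (70 splits, two-sided, unadjusted) used scipy 1.17.1. The members, lists and tests were chosen with earlier results of these data known. Named were all members, up to 5 called genes per list of smallest adjusted p, and the 3 nearest profiles, with exceptions given where they occur. Muscle, adipocyte and dendritic, Langerhans and macrophage markers were given mainly as counts and sums, so most called genes of these lists are not named. Il17re, Il6st, Traf3ip2, Stat3, Ly6g and Il36g were also named after their values were seen.

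Alternatives were a pseudocount of 0.1, no filter, a filter on mean FPKM (0.1 or above), TPM, median-of-ratios and quantile scaling, the replicate number as a block, voom on recovered reads and each library left out.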

Additional observations from a re-analysis of the deposited data

Results flagged for a closer look

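Of 108 groups of 4 libraries checked among the members and named genes, 9 held a library far from the other 3, and chance flags about 1 group in 20. Among the members these were Il22 in phytic acid replicate 1 (0.0442 FPKM) and in MC903 replicate 4 (0.0482), each with the other 3 at 0. Il20 in phytic acid replicate 4 (0.0414) also had the other 3 at 0, and each of these values is 2 reads. Il17ra in phytic acid replicate 4 was at 3.78 FPKM, with the others at 4.36 to 4.40.

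Among other named genes, Ahr in MC903 replicate 3 was at 15.4 FPKM (others 10.3 to 11.2), Irf4 in phytic acid replicate 4 at 6.38 (8.03 to 8.37) and Itgax in phytic acid replicate 3 at 4.14 (8.33 to 9.04). S100a8 in MC903 replicate 4 was at 312 FPKM (56.8 to 83.0) and Cfd in MC903 replicate 3 at 326 (100.3 to 134).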

How the results depend on the processing

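Il22ra1 stayed called higher in all 16 alternatives and Il19 uncalled in all 16. Il24 (main log2 fold change -1.20) lost its call with a pseudocount of 0.1 (-2.58), no filter (-1.20), a filter on mean FPKM of 0.1 (-1.20), the replicate block (-1.20) and voom on recovered reads (-3.64). It also did so without any 1 of 5 libraries, with values of -1.46 to -0.98 over the 8 libraries left out. The count of members called lower was 1, and 0 under these settings other than no filter, where Il20 was called, and 0 to 1 with a library left out. Il17ra changed sign under median-of-ratios (-0.0079) and quantile scaling (-0.0401), and ranged from -0.0463 to 0.16 with a library left out. Over all genes, 1722 were called higher and 1412 lower. With the replicate block, 1098 were higher and 948 lower, and the calls of Il17rc (adjusted p = 0.0738 by limma) and Il10rb (0.0695) were lost. With a library left out, 1072 to 2418 were higher and 941 to 1561 lower. The lowest of each was without MC903 replicate 1. Same-numbered libraries did not deviate together (correlation of deviations -0.29 to 0.23), and 1 of 4 phytic acid libraries was nearest to its own number. No pairing by number was seen, but 4 libraries per group are too few to settle whether the samples were paired. Depth limits Il17a, Il22, Il20, Il17c and Il17f, which had at most 12 reads in a library. The causes of these shifts were not tested.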
